A study of Mus musculus with 19 samples.

Results

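DNA copy number was compared between 6 hepatocellular carcinomas (HCC) and 4 hepatocellular adenomas (HCA) of mice, chosen by the tumor grade in their labels, out of 19 samples measured by array comparative genomic hybridization (aCGH). The question was whether gains and losses in the malignant tumors spanned whole chromosomes or parts of them, and how the sizes of the changes were spread, in comparison with the benign tumors. The other 9 samples were unaffected livers of the same mice and served as background. Every mouse was Mad2l1 f/f and carried Alb-Cre, whose albumin promoter is active in hepatocytes, so that other cells of a liver sample keep the checkpoint gene. The 4 HCAs came from 4 females aged 12 to 16.9 months, of which mice 2430 and 6199 were Trp53 f/f and mice 5884 and 5901 were Trp53 f/+. The 6 HCCs came from 5 mice aged 12.3 to 16.2 months whose labels give p53ser246+, a mutant Trp53 allele. Tumors of mice 6602 and 6240 were from females, and those of mice 6487, 6565 and 6642 were from males. Mouse 6240 gave 2 HCCs, called tumor 4 and tumor 2 as labeled. HCA and HCC shared 0 mice and 0 Trp53 genotypes, and an effect of the grade cannot be told apart from one of the Trp53 allele. No treatment is given in the labels. Tumor DNA was labeled with Cy5 and liver DNA of a control mouse of the opposite sex with Cy3.

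The spindle assembly checkpoint, in which Mad2l1 is an essential component, holds a cell in mitosis until all chromosomes are attached to the spindle. Cells that divide without it missegregate whole chromosomes, which leaves daughter cells with a copy too many or too few of an entire chromosome. A change of part of a chromosome also needs a DNA break, which gives a deletion, a duplication or an unbalanced translocation, and Trp53 is known for arresting or killing cells with damaged DNA. In aCGH of a tissue, a ratio depends on the number of copies and on the share of cells that carry the change. A small change in many cells and a large change in few cells cannot be told apart from one ratio, nor can tumor cells with fewer changes from a sample with more normal cells.

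All ratios below are log2 ratios of sample over control, shifted so that the median autosomal probe of each array is 0. That level need not be the most common one in a tumor. The median minus the most common level of 1 Mb windows was 0.155, 0.11 and −0.14 in the HCAs of mice 5884, 5901 and 6199. It was 0.14 in tumor 4 of mouse 6240, 0.11 in the HCC of mouse 6602 and −0.062 to 0.041 in the other tumors. Sizes and calls below depend on this choice. The ratio of an autosome was the mean of its probes, of which there were 6287 to 16650. For partial changes, the 221455 autosomal probes were summarised in 2392 windows of 1 Mb, and an autosome was called broken where neighbouring segments of at least 5 windows differed by at least 0.2. An autosome without a break whose ratio was 0.2 or more in size was called an unbroken change. In the 9 unaffected livers, 0 of 171 autosomes were broken and 1 was an unbroken change, Chr18 of mouse 6240 (0.20). That liver stood apart, since the largest ratio of any other liver was 0.15 in size. The sign of the X ratio matched the labeled sex in all arrays, and over the 2215 probes that varied most between livers, 10 of 10 tumors resembled their own liver more than any other.

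Unbroken changes were found in all 10 tumors and made up most of the altered genome in both tumor types. There were 22 among the 76 autosomes of the HCAs, 11 gains and 11 losses, and 21 among the 114 autosomes of the HCCs, 12 gains and 9 losses. HCAs of mice 2430, 5884, 5901 and 6199 had 8, 3, 6 and 5 unbroken changes. HCCs had 2 in each tumor of mouse 6240, 5 in mouse 6487, 2 in mouse 6565, 4 in mouse 6602 and 6 in mouse 6642. The ranges overlapped, and means of 5.5 ± 2.1 (SD, n = 4) in HCA and 3.5 ± 1.8 (SD, n = 6) in HCC did not differ beyond the spread between tumors (exact two-sided permutation test, p = 0.16, adjusted p = 0.65 over 8 summary measures). None of these 8 measures passed the threshold of 0.05 (0.0%), so that each is given below as a value and not as a difference between the tumor types. Of the unbroken autosomes closest to 0.2, those of 0.19, 0.195 and 0.199 were not counted and those of 0.203, 0.205 and 0.206 were.

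**Figure D1:**
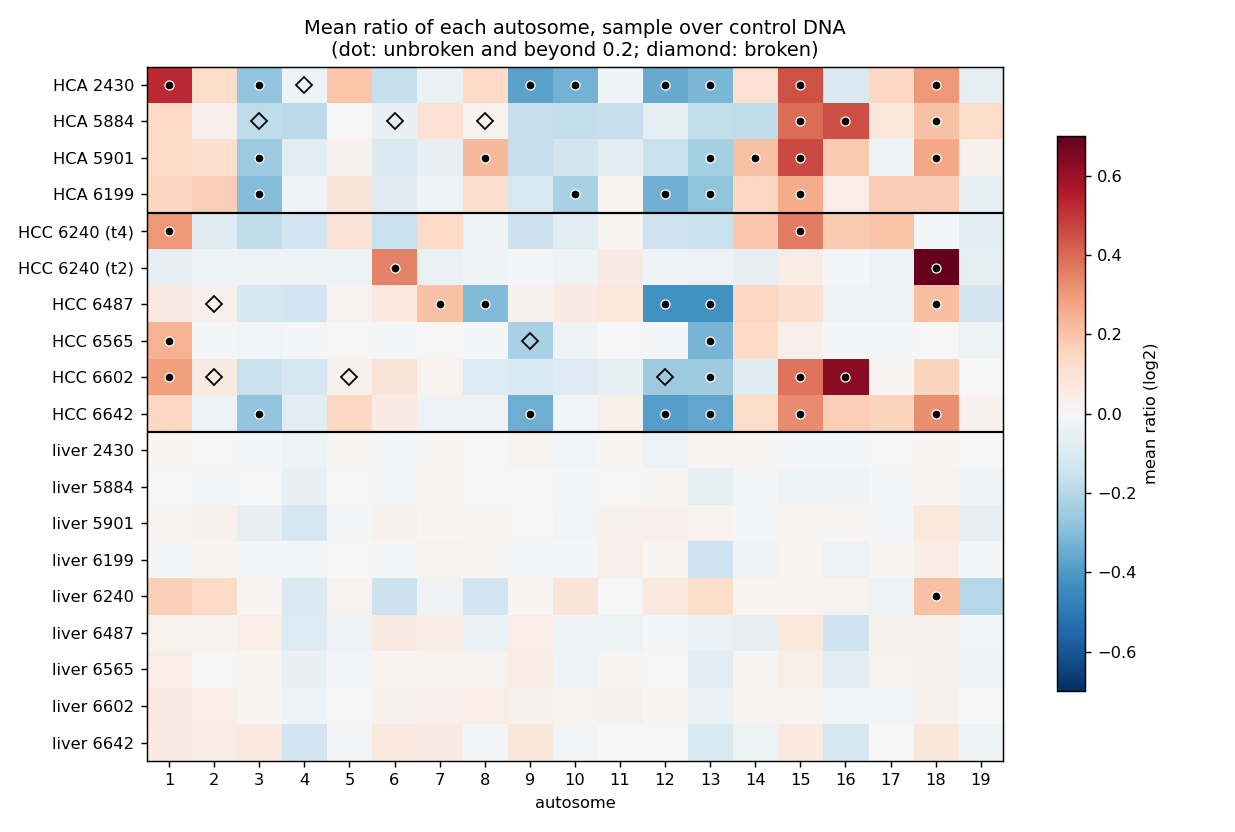
Mean log2 ratio of each of the 19 autosomes (columns) in the 4 HCAs, 6 HCCs and 9 unaffected livers (rows), with color giving the ratio, dots marking unbroken changes and diamonds marking broken autosomes. Tumors carry 43 dots and 9 diamonds, and the livers carry 1 dot and 0 diamonds.

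Counted as whole-chromosome ratios beyond 0.3 in size, called events, the HCAs of mice 2430, 5884, 5901 and 6199 had 7, 2, 1 and 2. The HCCs had 2 in each tumor of mouse 6240, and 3, 1, 2 and 5 in mice 6487, 6565, 6602 and 6642. Of the 27 events, 7 were thus in a single adenoma, and the groups overlapped (means 3 and 2.5, exact permutation test, p = 0.78). Without that HCA the difference of HCC minus HCA was 0.83 events, against −0.5 with it. The share of autosomal windows in changed segments was 12.2% to 42.9% in HCA and 9.82% to 29.3% in HCC, against 0% to 2.47% in the unaffected livers (HCC against HCA, exact permutation test, p = 0.41).

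The recurrent unbroken changes fell on the same autosomes and in the same direction in both tumor types. Of 13 autosomes with at least 1 unbroken change, 12 were altered in 1 direction in all tumors that had the change. The exception was Chr8. Chr6, Chr7 and Chr14 were changed in 1 tumor each, where 1 direction was certain, and Chr10 was changed in HCAs only. Altered in 3 or more tumors were 6 autosomes, with gains of Chr1, Chr15 and Chr18 and losses of Chr3, Chr12 and Chr13. None of these 6 differed between HCC and HCA after adjustment over the 19 autosomes.

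Chr15, which carries the oncogene Myc, was an unbroken gain in 4 of 4 HCAs, with ratios of 0.45, 0.39, 0.46 and 0.26 in mice 2430, 5884, 5901 and 6199. In HCC it was a gain in tumor 4 of mouse 6240 (0.37) and in mice 6602 (0.38) and 6642 (0.33), while tumor 2 of mouse 6240 (0.051) and mice 6487 (0.12) and 6565 (0.038) lay below the threshold. The HCCs thus fell into a set at the level of the HCAs and a set close to the livers, which ranged from −0.027 to 0.071. The mean difference of −0.18 was within the spread (exact permutation test, p = 0.086, adjusted p = 0.23).

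Chr13, which carries the telomerase gene Tert, was an unbroken loss in 3 HCAs and 4 HCCs. The ratios were −0.32, −0.17, −0.23 and −0.28 in the HCAs of mice 2430, 5884, 5901 and 6199, against −0.16 and −0.042 in tumors 4 and 2 of mouse 6240 and −0.42, −0.32, −0.25 and −0.36 in mice 6487, 6565, 6602 and 6642. The lowest and the highest value were both in HCC. Chr13 of the livers ranged from −0.14 to 0.13, and 3 HCAs and 4 HCCs were below that range and past the threshold.

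Chr18, which carries Apc and Smad4, was a gain in 3 HCAs (0.30, 0.20 and 0.27 in mice 2430, 5884 and 5901) and 3 HCCs (0.70 in tumor 2 of mouse 6240, 0.21 in mouse 6487 and 0.32 in mouse 6642). Tumor 4 of mouse 6240 had −0.016, so that the tumors of 1 mouse held the highest and the lowest Chr18 ratio among all tumors. Chr1 was a gain in the HCA of mouse 2430 (0.52) and in 3 HCCs, tumor 4 of mouse 6240 (0.30), mouse 6565 (0.24) and mouse 6602 (0.29). Beside both gains stand the values of the liver of mouse 6240, 0.20 for Chr18 and 0.17 for Chr1, and their part in the result was not tested.

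Losses of Chr3 were unbroken in the HCAs of mice 2430 (−0.28), 5901 (−0.26) and 6199 (−0.30) and in the HCC of mouse 6642 (−0.28). The remaining HCCs ranged from −0.18 to −0.020, and 5 of 6 HCCs lay above every HCA (mean difference 0.12, exact permutation test, p = 0.048, adjusted p = 0.23). Chr12 was an unbroken loss in the HCAs of mice 2430 (−0.35) and 6199 (−0.34) and in the HCCs of mice 6487 (−0.42) and 6642 (−0.39).

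**Figure D2:**
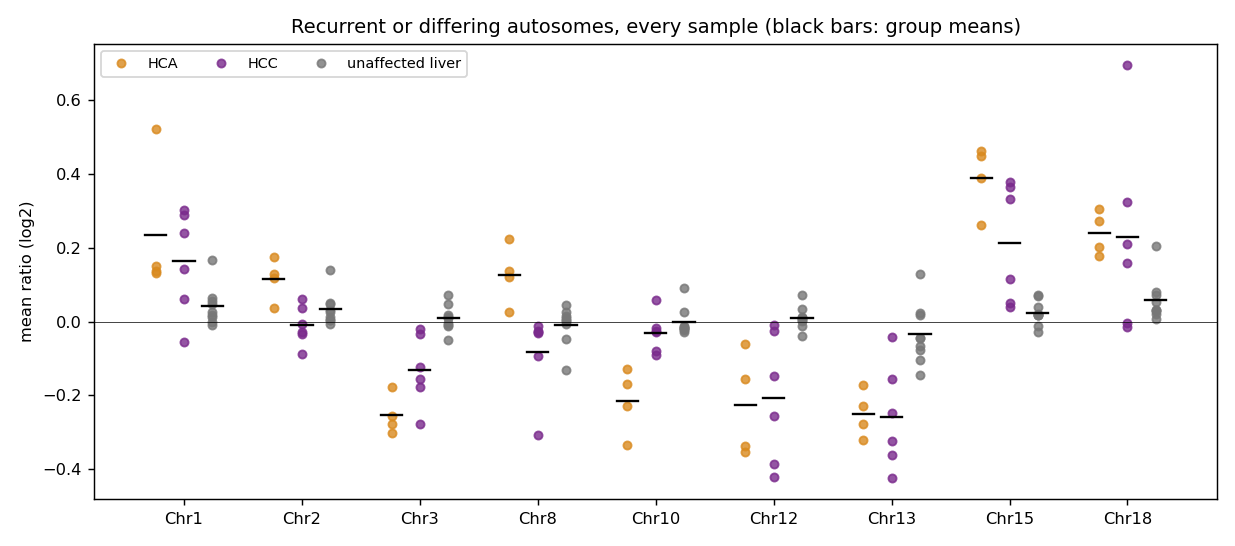
Mean log2 ratio in every HCA (orange), HCC (purple) and unaffected liver (gray) for the autosomes that were recurrent, broken in 2 tumors or different between HCC and HCA, with black bars at group means. HCA and HCC do not overlap for Chr8 and Chr10, and overlap for the other 7 autosomes.

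Chr8 and Chr10 differed between HCC and HCA (2 of 19 autosomes, 10.5%). Chr8 was 0.14, 0.026, 0.22 and 0.12 in the HCAs of mice 2430, 5884, 5901 and 6199, and −0.027 and −0.031 in tumors 4 and 2 of mouse 6240, −0.31 in mouse 6487, −0.011 in mouse 6565, −0.094 in mouse 6602 and −0.025 in mouse 6642. Every HCC lay below every HCA, but 5 of the 6 lay within the range of the livers (−0.13 to 0.046), with mouse 6487 as the single HCC below it. The difference was −0.21 (p = 0.0048 by the exact permutation test, which cannot go lower with 210 splits, adjusted p = 0.045). Chr10 was −0.33, −0.17, −0.13 and −0.23 in the HCAs and ranged from −0.089 to 0.059 in the HCCs, with a median close to that of the livers (difference 0.18, exact permutation test, p = 0.0048, adjusted p = 0.045). Of the 4 HCAs, mice 2430 and 6199 had an unbroken loss of Chr10 and no HCC had one.

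Whether these differences covered the whole autosome was tested window by window. With limma on the HCAs and HCCs, 0 of 2392 windows (0.0%) differed after adjustment, 500 had an unadjusted p under 0.05, and the smallest adjusted p was 0.125. When the livers were added to the fit, which then shares their smaller spread, 430 windows passed, 121 of the 127 on Chr10, 89 of 126 on Chr8, 96 of 177 on Chr2, 52 of 101 on Chr15, 39 of 157 on Chr3, 31 of 147 on Chr6 and 1 each on Chr5 and Chr11. The windows that passed on any one autosome all differed in the same direction. The call of Chr8 and Chr10 was lost after subtraction of the own liver (exact permutation test, adjusted p = 0.23). By the same test it was lost without any one of the 10 tumors (adjusted p of 0.0503 to 0.302). With the HCCs of mouse 6240 averaged it was lost too (exact permutation test, adjusted p = 0.0503). Fewer tumors give fewer splits and a higher smallest p, so these losses cannot show that 1 tumor carried the call. Leaving out 1 tumor, the difference stayed at −0.24 to −0.16 for Chr8 and 0.14 to 0.21 for Chr10. With chromosome medians in place of means, Chr2 was called as well, at −0.13 (exact permutation test, adjusted p = 0.0302). The arrays were scanned on 3 days, of which only the second held both tumor types, with 2 HCAs and 1 HCC. Within that day the differences were −0.48 for Chr8 and 0.24 for Chr10. The HCC of that day was that of mouse 6487, which had the lowest Chr8 ratio of all tumors (−0.31). With 1 HCC, the exact permutation test within this day cannot give a p at the threshold, and the day holds no spread among HCCs.

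Broken autosomes were called in 5 of the 10 tumors, 2 HCAs and 3 HCCs, with 9 broken autosomes and 15 breaks in all. In the HCA of mouse 2430 the only one was Chr4, whose dip the own liver showed too, so that without it 1 HCA and 3 HCCs remained, with 8 broken autosomes and 13 breaks. The HCA of mouse 5884 had 3 broken autosomes, the HCA of mouse 2430 had 1, and those of mice 5901 and 6199 had 0. The HCC of mouse 6602 had 3, those of mice 6487 and 6565 had 1 each, and the tumors of mouse 6240 and of mouse 6642 had 0. The number per tumor did not differ beyond the spread, 1 ± 1.4 (SD, n = 4) in HCA and 0.83 ± 1.2 (SD, n = 6) in HCC (exact permutation test, p = 1), nor did the number of breaks, with a mean of 1.5 in both (exact permutation test, p = 1). A partial change was never the only change, since each of these 5 tumors also had 2 to 8 unbroken changes.

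**Figure D3:**
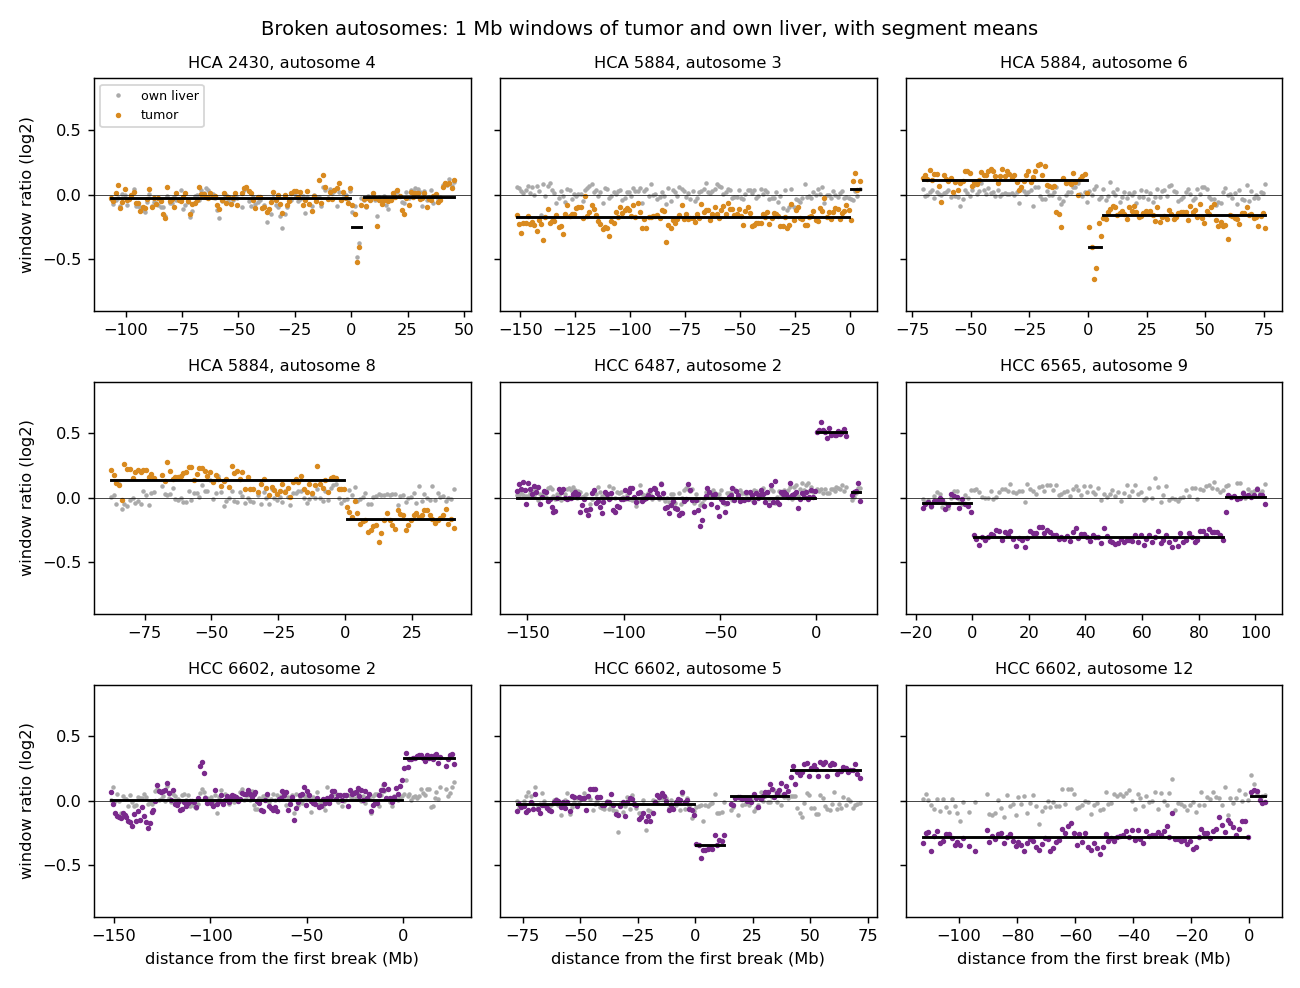
Log2 ratios of 1 Mb windows along the 9 broken autosomes, placed by their distance in Mb from the first break, for tumor (orange HCA, purple HCC) and own liver (gray), with black lines at the segment means. With 0 at the autosomal median, each changed segment in the HCCs borders a level near 0. Autosomes 6 and 8 of the HCA of mouse 5884 step between levels on either side of that 0. The dip of autosome 4 is present in tumor and liver of mouse 2430.

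With 0 at the autosomal median, the breaks delimited different levels in HCC and HCA. In the HCCs, each broken autosome had a segment beyond 0.2 and a remainder near 0. In the HCC of mouse 6487, the distal part of Chr2 from 159 to 175 Mb (build NCBI37) was gained, at 0.51 over 16 windows, while the 156 windows before it were at −0.0031 and the last 5 windows at 0.041. Its first break lay between the probes chr2:159095793 and chr2:159141984. The HCC of mouse 6602 had a gain of distal Chr2 that began earlier, between chr2:154540219 and chr2:154555445, and ran to the end of the chromosome at 0.33 over 25 windows.

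Chr2 was the one autosome broken in 2 tumors. Over the 16 windows that both gains share, the step from the rest of Chr2 was 0.51 and 0.33 in these HCCs, −0.038 to 0.050 in the other 4 HCCs, −0.0059 to 0.072 in the HCAs and −0.029 to 0.057 in the unaffected livers. The mean ratio of Chr2 as a whole was only 0.035 and 0.062 in the HCCs with the gain, so that neither passed a threshold on whole chromosomes.

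The HCC of mouse 6565 had lost the middle of Chr9, from 21 to 110 Mb, which is 73.0% of its windows, at −0.30, with −0.040 before and 0.0042 after the segment. The gene for beta-catenin, Ctnnb1, and the gene for the Hippo effector Yap1 are on this chromosome, but no gene was placed within the segment. In the HCC of mouse 6602, Chr5 held 4 segments, a remainder at −0.028, a loss of 13 windows from 81 Mb at −0.35, a stretch of 26 windows at 0.040 and a distal gain of 31 windows at 0.24. Chr12 of the same tumor was at −0.28 over 108 of its 114 windows and at 0.034 over the last 6, so that the loss covered all but 5.26% of the autosome. Over the windows of each of these changed segments, the own liver was between −0.048 and 0.062.

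In the HCAs, with 0 at the autosomal median, changed segments on broken autosomes were short. The breaks of Chr3 and Chr8 separated levels that were themselves below 0.2 in size. The HCA of mouse 2430 had a dip of 5 windows on Chr4 at −0.25, and its own liver had −0.22 over the same windows, so that the dip was not particular to the tumor. In the HCA of mouse 5884, Chr8 stepped from 0.14 over the first 85 windows to −0.17 over the last 41, and the mean of the whole autosome was 0.026. Chr6 of that tumor, the autosome of Mad2l1 and Met, stepped from 0.11 to −0.40 over 6 windows and then to −0.16. Its Chr3 was at −0.17 except for the last 5 windows at 0.042. Its own liver was between −0.0035 and 0.015 over all of these segments. The median taken as 0 lay 0.155 above the most common window level of this HCA. Close to that level were the last parts of Chr6 and Chr8 and most of Chr3. Which parts count as changed thus depends on the centring.

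The length of the changed segments on broken autosomes was 5 windows for the Chr4 dip that the liver of mouse 2430 shared, 6 windows for the other HCA segment, and 13 to 108 windows with a median of 28 in the 6 segments of HCC. These segments made up 11 of 2523 changed windows in HCA (0.436%) and 282 of 2914 in HCC (9.68%). Without the shared dip, the HCAs had 6 of 2518 (0.238%). All of these lengths and shares take the autosomal median as 0. In the HCA of mouse 5884 the most common window level lay 0.155 lower. Measured from there, the first 85 windows of Chr8 and the first 71 of Chr6 would count as changed. By tumor, the share was 0.488%, 2.06%, 0% and 0% in the HCAs and 0%, 0%, 2.67%, 22.3%, 25.8% and 0% in the HCCs. It was the largest in the HCCs of mice 6565 and 6602, which carried most of the HCC segments, and the other 4 HCCs did not stand apart from the HCAs (means 0.64% ± 0.98 and 8.5% ± 12, SD, exact permutation test, p = 0.30, adjusted p = 0.80).

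**Figure D4:**
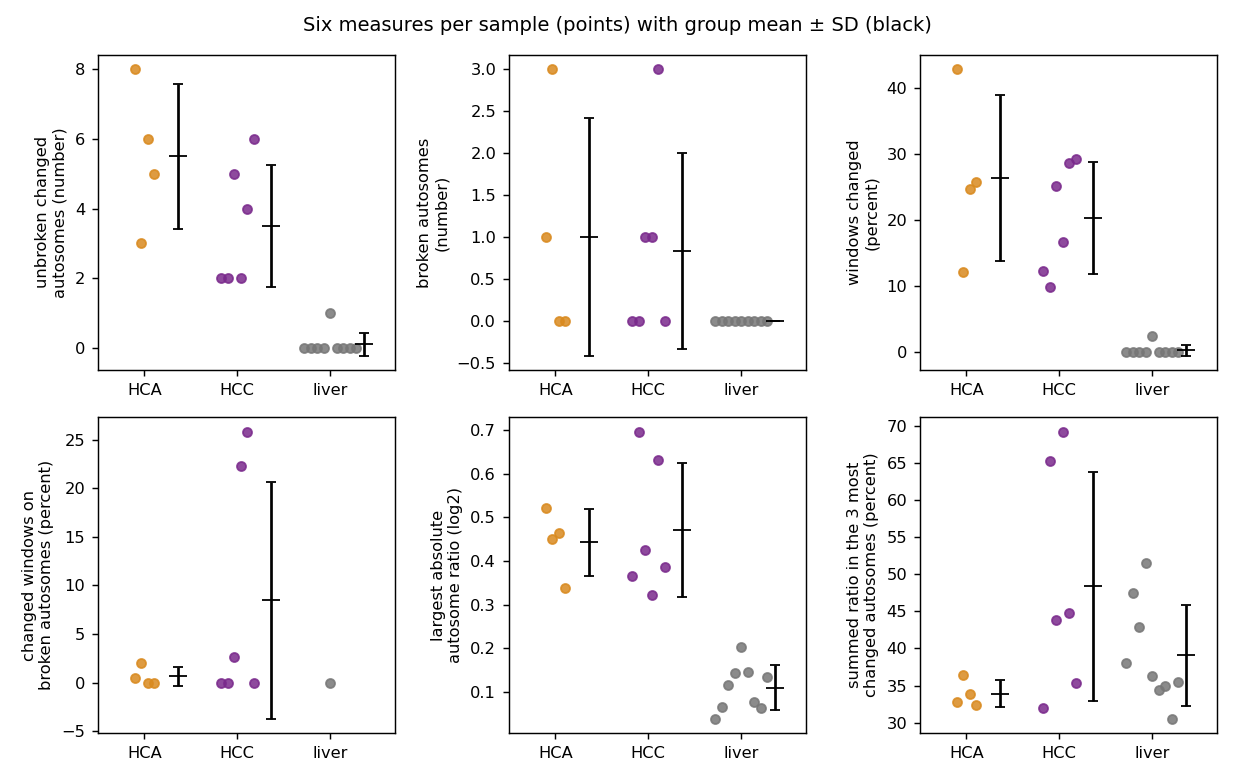
Values of 6 summary measures in every HCA, HCC and unaffected liver (points), with the group mean and SD in black; the share on broken autosomes is shown where a sample had any changed window. HCA and HCC overlap in all panels, and the broken autosomes per tumor run from 0 to 3 in both.

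The breaks did not all depend on the same choices. Out of 17 other ways to process the arrays, the breaks of Chr2 in both HCCs were called in 16, those of Chr5 and Chr12 in mouse 6602, of Chr9 in mouse 6565 and of Chr8 in the HCA of mouse 5884 in 15, and those of Chr6 and Chr3 of that HCA in 14 and 11. The Chr4 dip of the HCA of mouse 2430 was called in 9, and not after its own liver was subtracted.

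The sizes of the changes were spread over a similar range in both tumor types. Unbroken changes and changed segments had a median size of 0.30 (range 0.20 to 0.52, 24 changes) in HCA and 0.33 (range 0.20 to 0.70, 27 changes) in HCC. If all cells were diploid and a change was of 1 copy, a ratio of 0.585 would stand for a gain in every cell and −1 for a loss in every cell. On this assumption the median change was present in 40.6% of the cells in HCA (41.3% without the dip shared with a liver) and in 44.5% in HCC. Hepatocytes are often polyploid, in which case a change of 1 copy gives a smaller ratio and these shares are too low. The unaffected livers, whose X chromosome is expected at a ratio of 1 in females and −1 in males against control DNA of the opposite sex, had X ratios of 0.89 to 1.0 in females and −1.0 to −0.90 in males, close to the full size of this known difference.

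Losses did not exceed 51.0% of the cells by this reckoning in any tumor, and the strongest gains were higher. Chr18 of tumor 2 of mouse 6240 (0.70) and Chr16 of the HCC of mouse 6602 (0.63) were above 0.585, the value of 1 extra copy in every diploid cell. The liver of mouse 6240 was itself at 0.20 on Chr18. With it subtracted, Chr18 of tumor 2 was at 0.49, below 0.585. The strongest gain in HCA, Chr1 of mouse 2430 (0.52), corresponded to 87.0% of the cells. In HCC, the partial gain of Chr2 in mouse 6487 (0.51, 84.4% of the cells) was larger than the whole-chromosome changes of that tumor, which ranged from 30.5% to 51.0%.

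Within a tumor, the changes could be nearly equal in size or far apart. The HCC of mouse 6565 had 3 changes, the gain of Chr1, the loss of Chr13 and the partial loss of Chr9, and these corresponded to 36.3%, 40.1% and 38.1% of the cells. In this tumor 15 of 19 autosomes were within 0.05 of 0. At the other end, the 8 changes in the HCC of mouse 6602 ran from 31.6% to more than every cell, and in the HCA of mouse 2430 the 8 changes that its liver did not share ran from 35.1% to 87.0%. In the HCA of mouse 6199 the 5 changes ran from 29.2% to 41.7%.

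**Figure D5:**
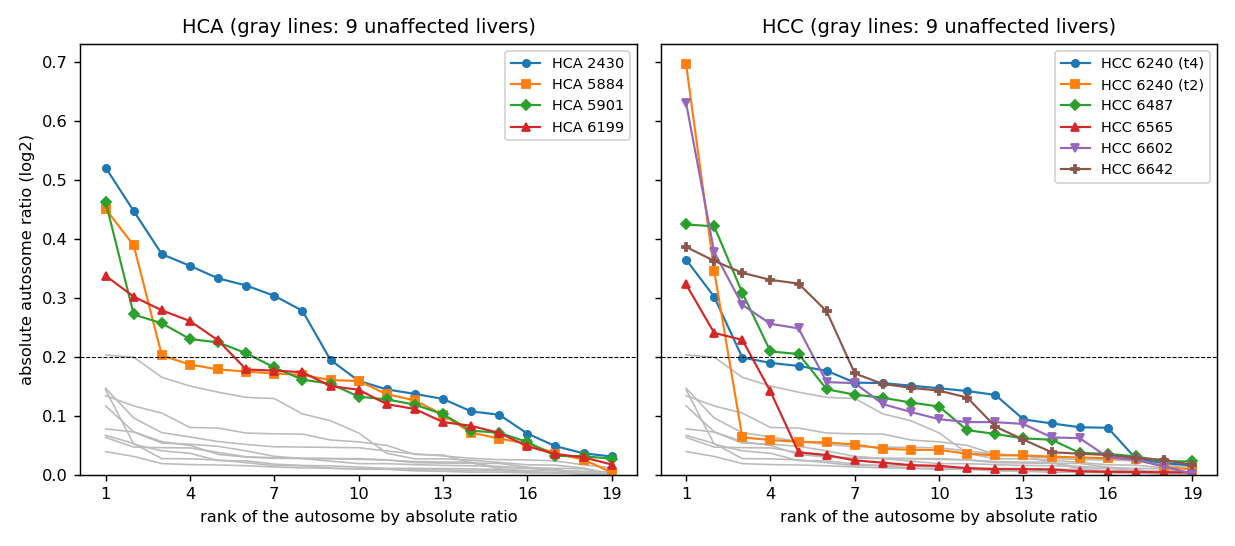
Absolute log2 ratio of the 19 autosomes of each tumor, ranked from the most to the least changed, for HCA (left) and HCC (right), with the 9 unaffected livers as gray lines and the threshold of 0.2 dashed. The HCAs start at 0.34 to 0.52 and decline over most ranks, whereas the HCCs of mouse 6565 and tumor 2 of mouse 6240 drop to the level of the livers after their first few autosomes.

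With 0 at the autosomal median, the number of autosomes close to 0 differed among the HCCs more than among the HCAs. Within 0.05 of 0 were 3, 3, 3 and 4 autosomes in the HCAs of mice 2430, 5884, 5901 and 6199. In HCC there were 3 in tumor 4 and 12 in tumor 2 of mouse 6240, and 5, 15, 4 and 6 in mice 6487, 6565, 6602 and 6642. The median minus the most common window level was 0.155, 0.11 and −0.14 in the HCAs of mice 5884, 5901 and 6199. It was 0.0026 in the HCC of mouse 6565 and 0.041 in tumor 2 of mouse 6240. How many autosomes lay near the most common level was not counted. The 3 most changed autosomes held 32.4% to 36.4% of the summed absolute ratio in the HCAs, and 32.0%, 65.2%, 43.8%, 69.2%, 44.8% and 35.3% in the HCCs in the same order. In 4 of 6 HCCs the share was above every HCA, and the difference was within the spread (mean 33.9% ± 1.8 against 48.4% ± 15, SD, exact permutation test, p = 0.11, adjusted p = 0.65). The livers, which have few changes to rank, had 30.6% to 51.5%. The largest ratio of a tumor was 0.44 ± 0.077 (SD) in HCA and 0.47 ± 0.15 (SD) in HCC (p = 0.74, exact permutation test).

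The profiles of the 4 HCAs resembled each other, with a correlation over the 19 autosomes of 0.56 to 0.89 among their 6 pairs and a median of 0.77. Among the 15 pairs of HCCs it was −0.12 to 0.72 with a median of 0.49, and between HCA and HCC it was 0.20 to 0.88 with a median of 0.58. The unaffected livers were measured on the same array design, also against control DNA of the opposite sex, and have few changes. Their correlation was −0.14 to 0.91 with a median of 0.41 among 36 pairs. Correlations as high as those among the HCAs were thus present between some livers. The HCAs were all from females and the HCCs from both sexes, so that the sex of the control DNA varied among the HCCs only. Its part in these correlations was not tested.

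The lowest correlation among HCCs was that between the tumors of mouse 6240. Tumor 4 had unbroken gains of Chr1 (0.30) and Chr15 (0.37), and tumor 2 had unbroken gains of Chr18 (0.70) and Chr6 (0.35), with 0 altered autosomes in common in these ratios and 0 breaks in either. In tumor 2, Chr1 and Chr15 were at −0.055 and 0.051, and in tumor 4, Chr18 and Chr6 were at −0.016 and −0.16. The strongest loss was −0.18 for Chr3 in tumor 4 and −0.063 for Chr19 in tumor 2, neither of them beyond the threshold. These counts depended on the reference, since the liver of this mouse stood apart. With it subtracted, tumor 4 had 6 unbroken changes and tumor 2 had 3. Tumor 4 was then below −0.2 for Chr2 (−0.23), Chr12 (−0.22), Chr13 (−0.28) and Chr18 (−0.22), and tumor 2 for Chr1 (−0.22), while Chr18 of tumor 2 stayed a gain (0.49), so that Chr18 was altered in both, in opposite directions. With each array centred on the mode of its windows, tumor 4 had 7 unbroken changes and tumor 2 had 2.

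Ranked by the mean of the whole autosome, with partial segments left aside, the strongest gain was Chr1 in the HCA of mouse 2430, Chr16 in that of mouse 5884 (0.45) and Chr15 in those of mice 5901 and 6199. The strongest losses of these HCAs were Chr9 (−0.37), Chr4 (−0.19), Chr3 (−0.26) and Chr12 (−0.34). Among the HCCs, the strongest gain was Chr18 in mouse 6487 (0.21), Chr1 in mouse 6565, Chr16 in mouse 6602 and Chr15 in mouse 6642, and the strongest losses in these were Chr13, Chr13, Chr12 (−0.26) and Chr12. Chr16 thus had the largest mean ratio in 1 HCA and 1 HCC, and not beyond the threshold in any other tumor.

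The chromosomes of genes known in liver cancer were set against the changes of all 10 tumors together. Of 16 genes often gained or activated in liver cancer, 9 lay on autosomes with more unbroken gains than losses, among them Myc on Chr15 and Mdm4, a Trp53 inhibitor, on Chr1, and 4 on autosomes with more losses, among them Tert on Chr13. Of 17 genes often lost, 5 lay on autosomes with more gains, among them Apc and Smad4 on Chr18, and 3 on autosomes with more losses, among them Sav1 and Lats1 of the Hippo pathway on Chr12 and Chr10. Of 12 spindle assembly checkpoint genes, 3 lay on autosomes with more gains, 2 on autosomes with more losses and 7 on autosomes with equal numbers. Over all 19 autosomes, 7 had more gains, 5 more losses and 7 equal numbers, and genes on the same autosome share 1 value.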

How the data were processed

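Genomic DNA of 10 tumors and 9 unaffected livers had been hybridised to Agilent mouse CGH arrays, 1 per sample. The deposited scanner files hold log10 ratios (Cy5 sample over Cy3 control), processed signal and intensity values from Feature Extraction 10.5.1.1, which the authors had background-subtracted and dye-normalized linearly, without lowess; probe positions are on NCBI37. Here, outlier spots were left out, spots of a probe averaged, and the ratios put on a log2 scale with the autosomal median of each array at 0. Medians of 1 Mb windows (at least 10 probes, median 92) were segmented by penalised least squares (penalty 3 times noise variance times the log number of windows) and neighbours closer than 0.2 merged; these steps were tested on simulated data. The window noise of an array was 0.030 to 0.049 in tumors. HCC was tested against HCA by exact permutation (two-sided), with Benjamini-Hochberg adjustment over 8 measures or 19 autosomes, and by limma 3.58.1 in R 4.3.3 for windows. The 2 HCCs of mouse 6240 were counted separately, and p-values measure the spread between these samples. Tumor and own liver are paired by mouse; after group means were removed their profiles correlated at −0.22 to 0.29, with 5 of 10 pairs above 0.1.

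Autosomes named were those that differed, those broken in 2 or more tumors and those with unbroken changes in 3 or more, with each tumor's strongest gain, strongest loss and longest changed segment. The groups, measures and gene lists were chosen with earlier results of these data known. The files name no genes and the RefSeq table at hand is on another build (GRCm38), so it was used only for the chromosome of a gene; all 45 listed genes matched. Single genes, Mad2l1 included, were not analysed here, and sequences are not shown. Another deposited table repeats these log10 ratios.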

Additional observations from a re-analysis of the deposited data

Results flagged for a closer look

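In groups of 4 HCAs and 6 HCCs, a single tumor stood far from the others in 6 of 54 sets of values, where chance gives about 3. The HCA of mouse 2430 had 7 whole-chromosome events (other HCAs 1 to 2) and a Chr1 ratio of 0.52 (others 0.13 to 0.15). On Chr7, mouse 5884 was at 0.10, against −0.056 to −0.035 in the other HCAs. The HCC of mouse 6602 had 3 broken autosomes (other HCCs 0 to 1) and was at 0.63 on Chr16, where the others ranged from −0.023 to 0.18. The HCC of mouse 6487 had a Chr8 ratio of −0.31 (others −0.094 to −0.011).

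The sex chromosomes were not part of the comparison of autosomes, and a tumor was set against its own liver where the difference exceeded the range of the livers of that sex (0.16 for X in 6 females, and 0.12 for X and 0.30 for Y in 3 males). The X ratio was lower than in the own liver by more than this in tumor 2 of mouse 6240 (−0.72, from 1.0 to 0.32), in tumor 4 of mouse 6240 (−0.31) and in the HCA of mouse 6199 (−0.17). In males it was lower in the HCCs of mice 6487 (−0.16) and 6642 (−0.15). None of these X differences had a break along the chromosome. The Y ratio of the HCC of mouse 6487 was 2.2 against 3.2 in its liver, a difference of −1.0, whereas the differences of the other male HCCs were 0.12 and 0.26.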

How the results depend on the processing

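Values here are HCC minus HCA. For measures and autosomes, scan day as a fixed block kept only the day with both tumor types. It is thus the same comparison of 2 HCAs with 1 HCC as that day alone. Only the window fits took scan day as a block over all tumors. None of 264 tests of the summary measures under alternatives had an adjusted p at or below 0.05 (lowest 0.11, exact permutation tests). Not all of these tests could have passed or differed. The scan day with both tumor types leaves too few splits, and the deposited table of all samples repeats the same ratios. The difference in broken autosomes per tumor turned positive with normexp background and with the own liver subtracted but without the HCCs of mouse 6240 (0.5 in both), with loess, segments of at least 10 windows or 2 Mb windows (0.33 each), at a threshold of 0.3 (0.42), without background correction (0.17), with probes well above background or the own liver subtracted (0.083 in both), and within the scan day that held both tumor types or with scan day as a fixed block (1 in both). Without background correction, events (0.33), unbroken changes (1.1) and the share of windows changed (5.1 percentage points) turned positive too, and within the scan day, alone or as a block, so did events (1.5). The share of changed windows on broken autosomes turned negative without centring (−0.52) and at a threshold of 0.15 (−1.1). The largest ratio turned negative with centring on the mode (−0.020), the own liver subtracted (−0.010, or −0.0040 without mouse 6240) and scaling by X (−0.0022). Leaving out 1 tumor gave −0.6 to 0.5 broken autosomes, positive without the HCA of mouse 5884. Events ran from −1.2 to 0.83, positive without the HCA of mouse 2430. The largest ratio ran from −0.017 to 0.057, negative without the HCA of mouse 6199, tumor 2 of mouse 6240 or the HCC of mouse 6602.

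The count of autosomes that differed was 0 with normexp, no centring, centring on the mode, the rank test, the scan day alone or as a fixed block, the HCCs of mouse 6240 averaged, females only, limma over the 19 autosomes and in each of the 10 fits that left out 1 tumor (0 to 0). It was 3 with window means and chromosome medians, where Chr2 was added, and 2 in the remaining 12 alternatives. Some of these 12 could not give another count. The size thresholds, the segment lengths and the 2 Mb windows do not enter the autosome ratios, and the deposited table of all samples repeats the ratios. Permutation tests on fewer tumors have fewer splits, so that a count of 0 there was partly set by the number of tumors. The pairing of tumor and own liver (mouse as a block) also gave 0, with Chr8 at −0.16 and Chr10 at 0.15 (adjusted p = 0.23 for both in exact permutation tests), and 0 again without the HCCs of mouse 6240. Windows that differed numbered 437 within the scan day with both tumor types and 430 with livers in the limma fit, and 0 under the other 32 alternatives. The count within that scan day came from 2 HCAs and 1 HCC, that of mouse 6487, and holds no spread among HCCs. It describes that tumor and cannot show a difference between the tumor types. Chr8, Chr2 and Chr15 stayed negative and Chr10 and Chr3 positive in 34 of 34 alternatives, among them those that leave the autosome ratios unchanged. Chr12 turned negative without background correction (−0.0049), with the own liver subtracted (−0.0017, or −0.039 without mouse 6240), within the scan day or with it as a block (−0.18) and with the HCCs of mouse 6240 averaged (−0.0050). Chr13 turned positive with normexp (0.0041), without centring (0.035), scaled by X (0.0010) and in females (0.10), and Chr18 with normexp (0.017), without background correction (0.035), without centring (0.033) and in females (0.040). Leaving out 1 tumor gave −0.11 to 0.023 for Chr1, −0.023 to 0.074 for Chr12, −0.052 to 0.024 for Chr13 and −0.11 to 0.037 for Chr18. The cause of these shifts was not tested. Segments of 2 windows, the random block, the counts without the dip shared with a liver and the removal of mouse 6240 after liver subtraction were chosen after seeing the data. Changes shorter than 5 windows, balanced rearrangements and changes in few cells are below what these arrays and thresholds resolve, and 4 against 6 tumors limit the precision.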
